A study of Mus musculus with 24 samples.

Results

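A set of 100 bead array probes was strong in both brain and kidney of the mouse and lower in heart. They were chosen by their measured log2 intensities in the 3 tissues, out of 25697 probes. On the log2 scale of the bead intensity, 23222 probes had brain and kidney medians less than 1 apart, and among these the gap was taken as the lowest of the 16 brain and kidney arrays minus the highest of the 8 heart arrays. The 100 probes with the largest gap are described here, out of 327 with a gap over 0. Because the tissue levels chose the probes, their differences between tissues are a description and were not tested on the arrays that chose them.

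The study profiled mice with 1 mutant copy of Kctd1, carrying the substitution L27N, beside wild type mice. Both groups had the C3HeB/FeJ strain and an age of 18.5 weeks, and no deletion or treatment is named for either. Total RNA came from brain, kidney and heart of 4 heterozygous and 4 wild type mice, with 1 array per tissue and mouse, so that 24 arrays were compared and each tissue had 8. The design text counts 5 wild type mice, and only the arrays of 4 were analysed here. Heterozygous mice keep a wild type copy of Kctd1, whose own level is not reported here. Replicates are separate mice, so p-values between genotypes take in variation among animals and among arrays alike.

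Brain and kidney share some cell tasks, which are given here as background and were not measured. Neurons and tubule cells both move ions and amino acids across polarised membranes, and both acidify vesicles with the vacuolar proton pump (V-ATPase), a rotary enzyme whose V1 part splits ATP and whose V0 part carries protons through the membrane. In neurons the pump charges synaptic vesicles, and in the kidney it serves endocytosis in the proximal tubule and acid secretion in the collecting duct. The levels below come from whole tissue pieces, in which fewer cells of a type and less RNA per cell cannot be told apart.

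The tissue labels were checked against marker genes. Brain markers had a median log2 intensity of 9.04 in brain, 6.68 in kidney and 6.79 in heart. Kidney markers stood at 9.85 in kidney, 6.72 in brain and 6.76 in heart, and heart markers at 12.01 in heart, 6.69 in brain and 6.65 in kidney. No marker probe of these 3 lists was among the 100 probes. The correlation over probes was 0.991 to 0.996 within a group and 0.683 to 0.754 between tissues. A detection p under 0.05 was reached by 12358 to 12979 probes on a brain array, 10692 to 11372 on a kidney array and 11408 to 12649 on a heart array. Kidney arrays were dimmer as a whole: over the 14835 probes detected in a tissue, the median of kidney minus heart was −0.17 on the log2 raw scale and −0.03 after background correction and quantile normalization (neqc), and that of brain minus heart was −0.03 and −0.02. The heart array of heterozygous replicate 2 stood apart in liver genes and in Ttr, as described with that gene.

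The 100 probes carry 92 different genes on 20 chromosomes, with 10 genes on chromosome 11. A gene symbol was given for 95 of the probes, and the other 5 are unnamed here. Faah, Gldc and Gnptg each have 2 probes in the set. All 100 probes were detected on all 8 brain arrays and all 8 kidney arrays. In heart 79 were detected on 8 arrays, 12 on 1 to 7 arrays and 9 on 0 arrays, so most of the transcripts were low in heart and not below detection.

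The median member had a log2 intensity of 9.02 in brain, 9.06 in kidney and 7.47 in heart. Taken array by array, the median over the members was 8.89 to 9.21 in brain, 8.90 to 9.29 in kidney and 7.24 to 7.56 in heart. The choice of probes sets this separation, since each member was lower on every heart array. Brain exceeded heart by a median of 1.46 (0.59 to 4.56) and kidney exceeded heart by 1.33 (0.67 to 4.14) on the log2 raw scale. After neqc, which removes the background that compresses dim probes, the medians were 2.11 (1.01 to 6.20) and 2.60 (1.33 to 5.99). Among probes detected on all 8 arrays of a tissue, the median member was brighter than 84.1% in brain, 86.5% in kidney and 44.7% in heart. The members thus came from the bright end in brain and kidney and from the middle of the range in heart. Their spread was that of other probes in brain, with a median SD over arrays of 0.119 against 0.105 for all probes detected on 8 arrays. It was wider in kidney, at 0.158 against 0.113, and 0.119 against 0.131 in heart.

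The gap was 2.82 at most and had a median of 0.71. It was over 2 for 6 probes, over 1 for 31 and over 0.5 for 83. Just inside the boundary stood Snn, Abat and Bscl2, at gaps of 0.42 each. Just outside stood second probes of Papss1 and Chrna4, at 0.41 and 0.40, and Ergic3 at 0.40. The boundary is therefore a place in a smooth series and marks no break.

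The 10 widest gaps belong to Ddah1, Lzts3, Slc1a1, Nipsnap1, Ttr, Prkcz, Nme1, Faah and 2 unnamed probes. Ddah1, the hydrolase that clears an inhibitor of nitric oxide synthase, had the largest gap, with log2 levels of 10.62 to 11.02 (median 10.69) in brain, 11.34 to 11.74 (median 11.49) in kidney and 7.49 to 7.80 (median 7.68) in heart. Slc1a1, a glutamate transporter of neurons and of the renal tubule, lay at 9.62 to 9.83 (median 9.74) in brain, 10.43 to 10.89 (median 10.63) in kidney and 6.85 to 6.99 (median 6.91) in heart. Both genes were higher in kidney than in brain on every array, and the heart arrays stood well below either tissue. Ddah1 was not chosen when the rule was applied after neqc or with medians within 0.5, and Slc1a1 also not after quantile normalization or on heterozygous arrays alone. After neqc the level of Ddah1 was 16.3-fold that of heart in brain and 32.3-fold in kidney, and the member probe of Slc1a1 was at 25.7-fold and 63.6-fold. Another Slc1a1 probe was detected on 8 brain, 8 kidney and 0 heart arrays and differed far less between tissues. Its medians were 7.041 in brain, 7.785 in kidney and 6.741 in heart, with a gap of 0.087.

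Faah, which breaks down the endocannabinoid anandamide, had 2 probes with nearly the same levels. The brighter of them lay at 8.69 to 9.09 (median 8.81) in brain, 8.51 to 9.00 (median 8.60) in kidney and 6.64 to 6.84 (median 6.75) in heart, where it was not well above background on any array. Its level was therefore at least 14.2-fold higher in brain and at least 17.2-fold higher in kidney than in heart, the bound being set by the dimmest detected signal of each heart array. A further Faah probe was detected on 0 arrays, with medians of 6.70 in brain, 6.64 in kidney and 6.75 in heart, so the probes of Faah disagree. Nme1, a nucleoside diphosphate kinase, was among the bright members, at 11.36 to 11.85 (median 11.45) in brain, 11.36 to 11.72 (median 11.55) in kidney and 8.80 to 9.46 (median 9.16) in heart. Its brain and kidney arrays overlapped almost fully. Gldc, of the glycine cleavage system, had its brighter probe at medians of 8.67 in brain, 9.29 in kidney and 6.97 in heart, and its second at 7.46, 7.89 and 6.79 in the same order.

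Lzts3, a postsynaptic scaffold protein, lay at 10.65 to 10.87 (median 10.71) in brain, 10.33 to 10.85 (median 10.68) in kidney and 7.29 to 7.63 (median 7.48) in heart. The other 2 Lzts3 probes were near background, with medians of 6.84 and 6.86 in brain, 6.77 and 6.66 in kidney and 6.82 and 6.69 in heart, so the gap of Lzts3 rests on 1 probe. Prkcz, an atypical protein kinase C that helps set cell polarity, lay at 9.11 to 9.46 (median 9.24) in brain, 8.92 to 9.47 (median 9.17) in kidney and 6.75 to 7.01 (median 6.86) in heart. A second Prkcz probe had medians of 10.62 in brain, 9.01 in kidney and 7.17 in heart, and a further probe was detected on 8 brain arrays and 0 kidney arrays. The Prkcz probes thus differ in how brain and kidney compare, and which transcripts each one reads was not tested.

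Nipsnap1, a mitochondrial protein, lay at 9.53 to 10.19 (median 9.71) in brain, 10.51 to 10.66 (median 10.58) in kidney and 6.84 to 7.10 (median 6.95) in heart. The unnamed probes ILMN_1253348 and ILMN_2954474 were also among the 10 widest gaps, with medians of 11.43 and 10.35 in brain, 12.35 and 9.93 in kidney and 8.93 and 7.77 in heart.

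Ttr encodes transthyretin, the carrier of thyroxine and of retinol-binding protein, known in brain as a product of the choroid plexus and in the body as a product of the liver. It lay at 11.32 to 12.46 (median 11.71) in brain, 10.99 to 11.77 (median 11.29) in kidney and 6.93 to 8.56 (median 7.15) in heart. One heart array, heterozygous replicate 2, held the value of 8.56, and the other 7 were at 7.23 or below. Its gap was 2.43 with that array and 3.76 without it, and the same 100 probes were found again when that array alone was left out. Ttr was the only member that exceeded the other heart arrays by over 0.5 there.

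The same heart array also carried liver transcripts. Of 24 probes of 18 liver genes, from a list of 20 chosen after the data were seen, 19 were highest on that array among the heart arrays and 10 exceeded the next by over 0.5 (0.50 to 2.64). Mup2, a major urinary protein, was at 10.63 against 7.99 on the next heart array, and Apoa2, an apolipoprotein, at 9.57 against 7.30. The other Mup2 probe was at 7.03 against 6.97. Cyp2e1 was not highest there, at 7.93 against 8.37 on heterozygous replicate 3. The probes of Alb, Fgb and Tat and a probe of Hpx were not highest there either. The Alb probe was detected on 0 of the 24 arrays. The mean level of the 24 probes was 7.81 on that array and 6.88 to 6.95 on the other 3 heterozygous heart arrays, against 6.88 to 7.02 on the wild type heart arrays. Heterozygous and wild type kidneys were at 7.39 to 7.44 and 7.38 to 7.42, and heterozygous and wild type brains at 6.73 to 6.79 and 6.69 to 6.80. The part of liver tissue in the Ttr value was not tested.

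Other genes that mark the choroid plexus were mostly at other levels. The list of 8 such genes was set with Ttr in it, and Ttr was its only member among the 100 probes. Of its 10 detected probes, those of Ttr and 1 of Kl (20.0%, against 3.12% of all detected probes) had every brain and kidney array above every heart array. Over the 11 probes of the list the median level was 6.88 in brain, 9.17 in kidney and 6.81 in heart. Clic6 and Otx2 went the other way between brain and kidney. They were detected on 8 brain arrays and 0 kidney arrays, with brain medians of 7.97 and 7.18. Kl, the coreceptor Klotho of the distal tubule, had its brighter probe at medians of 7.04 in brain, 10.16 in kidney and 6.77 in heart, with a gap of 0.16.

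Among the gene lists examined, that of the V-ATPase held the most members. A list of 23 subunit and accessory genes had 30 probes for 22 of them, of which 26 were detected in a tissue, and 5 of these were members. Of these, 4 encode subunits of the V1 part, and the other, Atp6ap2, encodes an accessory protein. On 8 of the 26 probes (30.8%) every brain and kidney array lay above every heart array, against 3.12% of the 14835 detected probes. The reverse held for 1 of the 26, Atp6v1g1, against 18.1% of the detected probes. The tissue levels chose the 5 members, so these shares describe the list and do not test it.

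Atp6v1h, the regulatory H subunit, lay at 10.56 to 11.11 (median 10.78) in brain, 10.51 to 10.85 (median 10.62) in kidney and 8.70 to 9.17 (median 9.01) in heart. Atp6v1f, the F subunit of the central stalk, lay at 10.90 to 11.22 (median 11.06) in brain, 11.20 to 11.64 (median 11.32) in kidney and 8.91 to 9.67 (median 9.37) in heart. For both, brain and kidney were within 0.3 of each other while heart was lower by more than 1.5. The catalytic A subunit, Atp6v1a, was dimmer, at 8.85 to 9.44 (median 9.04) in brain, 8.19 to 8.81 (median 8.39) in kidney and 7.23 to 7.50 (median 7.30) in heart. Atp6v1b2, the B subunit made in most tissues, had medians of 11.38 in brain, 10.45 in kidney and 9.51 in heart, the widest excess of brain over kidney among the members. Atp6ap2, the prorenin receptor that also helps assemble the pump, was next in that order, with medians of 12.22, 11.40 and 9.53 in brain, kidney and heart. The other 3 Atp6ap2 probes were more than 1 higher in brain than in kidney and so fell outside the rule. Their gaps were also below 0, at −0.06, −0.36 and −0.37. Kidney medians exceeded heart medians on them by only 0.55, 0.38 and 0.37.

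The remaining V-ATPase probes divided by tissue in other ways. Atp6v0b and 2 of the 4 probes of Atp6v0d1, both of the membrane part, also had every brain and kidney array above every heart array, at smaller gaps. The medians of Atp6v0b were 10.55 in brain, 10.02 in kidney and 9.35 in heart. Atp6v1g2, a G subunit known from neurons, had its brighter probe at medians of 11.63 in brain, 6.97 in kidney and 7.09 in heart. Atp6v1c2, a C subunit isoform, was highest in kidney, with medians of 7.03 in brain, 7.77 in kidney and 6.89 in heart. Atp6v1e1, the E subunit, was bright in every tissue, at 12.19 in brain, 11.39 in kidney and 11.45 in heart. Its order between kidney and heart changed with the scaling, since the kidney median minus the heart median was −0.06 on the log2 raw scale and 0.46 after neqc over the same 8 arrays of each tissue.

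Gnptg, the gamma subunit of the enzyme that tags lysosomal hydrolases with mannose 6-phosphate, had 2 member probes. The first lay at 10.09 to 10.37 (median 10.20) in brain, 10.36 to 10.63 (median 10.49) in kidney and 8.27 to 8.78 (median 8.48) in heart, and the second had medians of 9.88, 10.13 and 8.48 in the same tissues. These 2 probes gave the same order of tissues. Another Gnptg probe was detected on 0 arrays, with medians of 6.71 in brain, 6.64 in kidney and 6.71 in heart. Clta, a clathrin light chain, had medians of 10.15 in brain, 9.95 in kidney and 9.09 in heart on its member probe. Another Clta probe was near background, with medians of 6.77 in brain, 6.69 in kidney and 6.82 in heart. The member probe of Clta was the only member among 41 detected probes for Rab GTPases and vesicle trafficking. Of the 41, 4 (9.76%, against 3.12% of all) had every brain and kidney array above every heart array, and 8 (19.5%, against 18.1%) had every heart array above both.

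The extended E-box TCACGTGA is a palindrome known as a binding motif of lysosomal gene regulators, and it was looked for in RefSeq promoters (GRCm38.p6, 250 bases before to 50 after each annotated start), where 74 of the 92 member genes had an entry. It was found in 2 of the 74 (2.7%), Atp6v1a and Gnptg, against 2.48% of 4873 genes with a probe detected on all brain and kidney arrays and 1.12% of all 27025 genes. Both matches lie before an annotated start but inside the outer limits of the gene, so other transcripts of the gene may span them.

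The core of that motif, CACGTG, which the longer form contains, was present in the promoters of 14 of the 74 member genes (18.9%), against 12.7% of genes detected in both tissues and 8.09% of all genes. Among them is Nme1, whose stretch is shown because it has one of the 10 widest gaps and lies wholly before the gene, with the motif in capitals.
Nme1: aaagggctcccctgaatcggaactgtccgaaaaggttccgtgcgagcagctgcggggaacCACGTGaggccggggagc

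The Nme1 stretch is chr11:93968273-93968350 on the minus strand (RefSeq, GRCm38.p6), and the motif is 18 to 13 bases before the first annotated start of the gene. Other promoter letters were counted in the same windows. GGGCGG was found on either strand in 57 (77.0%, against 71.9% and 38.2%), CCAAT in 40 (54.1%, against 44.1% and 41.1%) and TATAAA in 7 (9.46%, against 8.54% and 15.7%). The median GC content of the windows was 61.8% in member genes, 61.0% in detected genes and 52.8% in all genes.

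Ion and solute transport gave 3 members among 41 detected probes of its list. Beside Slc1a1 these were Atp1b1, the beta subunit of the sodium pump, and Slc7a8, an exchanger of neutral amino acids. Atp1b1 was the brightest member in all 3 tissues, at 12.43 to 12.80 (median 12.64) in brain, 12.74 to 13.00 (median 12.84) in kidney and 10.84 to 11.36 (median 10.99) in heart. Slc7a8 was near the lower end, with medians of 7.63 in brain, 7.60 in kidney and 6.85 in heart. Another Slc7a8 probe differed less, with medians of 6.919 in brain, 6.902 in kidney and 6.785 in heart. Of the 41 probes of this list, 9 (22.0%, against 3.12% of all) had every brain and kidney array above every heart array, and 4 (9.76%, against 18.1%) had every heart array above both.

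Some members were bright in heart as well. Cox6a1, the subunit 6A isoform of cytochrome c oxidase used outside striated muscle, lay at 12.15 to 12.45 (median 12.26) in brain, 12.22 to 12.60 (median 12.36) in kidney and 10.53 to 11.05 (median 10.65) in heart. Grina, a membrane protein of the TMBIM family, had medians of 12.20, 12.23 and 10.98 in brain, kidney and heart. After neqc Cox6a1 stood at 4.70-fold the heart level in brain and 4.46-fold in kidney, and Grina at 3.72-fold and 3.44-fold. A second Cox6a1 probe had medians of 10.91 in brain, 10.87 in kidney and 9.81 in heart and a gap of 0.21.

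Some further members were singled out after their values were seen, for what their genes do. Sqle and Hmgcs1, enzymes of cholesterol synthesis, had medians of 8.92 and 12.11 in brain, 8.85 and 11.89 in kidney and 6.88 and 10.16 in heart. Hsd17b7, another enzyme of that route, stood at 8.43, 8.66 and 7.18. Fads2, a fatty acid desaturase, and Mfsd2a, a transporter of lipid-bound docosahexaenoic acid at the blood-brain barrier, were detected on 0 heart arrays, and after neqc Mfsd2a was at least 8.12-fold higher in brain and at least 13.3-fold higher in kidney than in heart. The member probe of Slc6a15, a neutral amino acid transporter of neurons, was also detected on 0 heart arrays. It was at least 15.4-fold higher in brain and at least 11.3-fold higher in kidney. A second Slc6a15 probe was detected on 0 brain, 2 kidney and 0 heart arrays. Its medians were 6.70 in brain, 6.69 in kidney and 6.77 in heart, so the probes of Slc6a15 disagree. Because these genes were chosen with the values in view, no statement on their pathways follows.

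The promoter of Hmgcs1 is shown because the gene is a known target of sterol regulatory element binding proteins, whose motif was searched as TCACNCCAC on both strands. It was found in 2 of the 74 member genes (2.7%), Hmgcs1 and Papss1, against 1.21% of detected genes and 1.44% of all genes. The Hmgcs1 stretch is chr13:119690154-119690282 on the plus strand (RefSeq, GRCm38.p6), with the motif in capitals at 137 to 129 bases before the start.
Hmgcs1: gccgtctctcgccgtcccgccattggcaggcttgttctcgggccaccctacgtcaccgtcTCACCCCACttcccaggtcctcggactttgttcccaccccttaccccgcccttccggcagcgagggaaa

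Brain and kidney levels of the members were close by the rule, and within it they still differed. The median of brain minus kidney was −0.04 (−0.95 to 0.92), with 48 members higher in brain and 52 in kidney, and 44 were within 0.25. For 16 members every brain array lay above every kidney array, against 38.7% of the 6291 probes with medians within 1 that were detected on all arrays of both tissues. For 22 every kidney array lay above every brain array, against 10.2%, and 62 overlapped. The widest kidney excess was that of Tnfrsf21, death receptor 6, at 9.26 to 9.56 (median 9.46) in brain, 10.11 to 10.77 (median 10.40) in kidney and 7.45 to 7.86 (median 7.64) in heart. Chrna4, a nicotinic acetylcholine receptor subunit, followed, at 7.43 to 7.81 (median 7.53) in brain, 8.26 to 8.88 (median 8.47) in kidney and 6.66 to 6.80 (median 6.71) in heart, where it was detected on 0 arrays. A gene known from synapses was therefore higher in kidney here than in brain on its member probe. The Chrna4 probe just outside the boundary gave the same order of medians, at 7.41 in brain, 7.88 in kidney and 6.77 in heart. A further Chrna4 probe was near background, at 6.87 in brain, 6.74 in kidney and 6.75 in heart.

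Other probes of the member genes, which the rule did not take, were read beside the members. There were 43 such probes for 31 genes, of which 14 were not detected in both brain and kidney. Of all 43, 22 had both medians above the heart median, as did 5.96% of the 25697 probes on the array, and 13 had a gap over 0, against 1.8% of all. They share genes and arrays with the members, so these counts are a description.

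The tissue difference was then measured in mice that did not choose the probes. The same rule on the 12 wild type arrays gave 100 probes, 88 of them among the members. The heterozygous arrays had no part in that choice, though they did help to choose the members. The counts below therefore concern the wild type choice and do not test the members. In the 12 heterozygous arrays 98 of these 100 exceeded heart by over 1 in both brain and kidney at an adjusted p under 0.05 (limma), against 2.9% of detected probes. Brain minus heart had a median of 2.12 and kidney minus heart one of 2.68 after neqc, against −0.02 and −0.03 for all probes. The 4 V-ATPase probes among the 100, those of Atp6v1h, Atp6v1f, Atp6ap2 and Atp6v1a, were all among the 98. The exceptions, Copz1 and Ergic3, which act in transport between the endoplasmic reticulum and the Golgi, missed on size, with brain minus heart differences of 0.99 and 0.98. For all 100 probes every heterozygous brain and kidney array lay above every heterozygous heart array, against 4.81% of detected probes, and the gap was 0.39 to 2.94 with a median of 0.89. The closeness of brain and kidney carried over for 88 of the 100, whose medians were again less than 1 apart.

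The next question was whether the members differed between heterozygous and wild type mice. No member did so at an adjusted p under 0.05 in limma: 0 of 100 in brain (0.0% of all 12608 probes tested), 0 of 100 in kidney (0.273% of 10976) and 0 of 84 in heart (0.0% of 12004). The other 16 members were detected on fewer than 4 heart arrays and were not tested there. At an unadjusted p under 0.05 there were 0 members in brain (7.1% of all), 9 in kidney (8.52% of all), 4 higher and 5 lower, and 4 in heart (4.75% of all), 2 in each direction. These shares are near or below those of all probes.

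The median difference of the members was 0.00 in brain (−0.19 to 0.21), −0.03 in kidney (−0.47 to 0.37) and −0.01 in heart (−0.31 to 1.15) on the log2 scale, heterozygous minus wild type. The medians over all probes tested were 0.00 in each tissue. The median size of a member's difference was 0.049 in brain, 0.094 in kidney and 0.057 in heart, against 0.078, 0.096 and 0.079 for all probes. The median log2 raw level of the members was 8.96 ± 0.09 in heterozygous and 9.03 ± 0.12 in wild type brain, 9.10 ± 0.18 and 9.03 ± 0.08 in kidney, and 7.40 ± 0.14 and 7.50 ± 0.07 in heart (SD, n = 4 each).

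In kidney the largest difference was that of Ppp1r1a, an inhibitor of protein phosphatase 1. Its log2 level after neqc was 7.98, 7.62, 8.06 and 8.27 in heterozygous kidneys, against 8.42, 8.51, 8.30 and 8.57 in wild type kidneys. The groups did not overlap, and the difference was −0.47 (SE 0.13, unadjusted p = 0.00295, adjusted p = 0.253 in limma). Groups without overlap were found for 6 members in kidney, against 4.58% of all probes tested, with 2 members higher (2.3% of all) and 4 lower (2.29% of all). In brain Ppp1r1a stood at 9.20, 9.15, 9.24 and 9.24 in heterozygous mice, against 9.20, 8.77, 9.15 and 8.87 in wild type mice, which differ by 0.21 (SE 0.10, adjusted p = 0.72 in limma). Whether its difference depended on the tissue was tested as an interaction, which gave an unadjusted p of 0.00173 and an adjusted p of 0.247 in limma.

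Map7, which stabilises microtubules, was at 8.66, 8.62, 8.74 and 8.57 in heterozygous kidneys, against 8.97, 8.78, 9.03 and 9.07 in wild type kidneys, also without overlap. Its difference was −0.32 (SE 0.10, adjusted p = 0.36 in limma). The pump subunit Atp6v1a was at 7.97, 8.43, 8.19 and 8.31 in heterozygous kidneys, against 7.99, 7.84, 7.93 and 7.91 in wild type kidneys. Heterozygous replicate 1 lay within the wild type range and the other 3 above it, and the difference was 0.31 (SE 0.11, adjusted p = 0.437). The unnamed probe ILMN_2975718 differed by 0.37 (SE 0.12, adjusted p = 0.386), with overlap of the groups.

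In brain the members with the smallest p in each direction had differences under 0.25. Gpd2, the mitochondrial glycerol 3-phosphate dehydrogenase, was at 9.06, 9.01, 8.96 and 9.09 in heterozygous brains, against 8.94, 8.93, 8.78 and 8.79 in wild type brains, which differ by 0.17 (SE 0.08, adjusted p = 0.712, limma). Another Gpd2 probe had log2 raw medians of 6.83 in brain, 6.78 in kidney and 6.86 in heart, so the probes of Gpd2 disagree between tissues. The brain groups did not overlap for Gpd2 and for 1 other member, Map7 (difference −0.12, adjusted p = 0.816), against 3.93% of all probes, 1 being higher (1.86% of all) and 1 lower (2.07% of all) in heterozygous mice. Tmem9, a lysosomal membrane protein, differed by −0.19 (SE 0.09, adjusted p = 0.704) and Car2, a carbonic anhydrase, by −0.15 (SE 0.08, adjusted p = 0.759), both with overlap. A second Car2 probe was detected on 0 arrays. In kidney Car2 differed by −0.41 (SE 0.17, adjusted p = 0.551). Without heterozygous replicate 1 it became the only member to pass in kidney, at −0.62 with an adjusted p of 0.0352.

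In heart Erg28, a scaffold protein of sterol synthesis, was at 5.88, 5.83, 6.07 and 5.86 in heterozygous mice, against 5.59, 5.75, 5.70 and 5.68 in wild type mice, with no overlap. Its difference was 0.23 (SE 0.09, adjusted p = 0.927 in limma). The unnamed probe ILMN_2954474 was at 6.83, 6.84, 7.02 and 6.83 in heterozygous hearts, against 7.36, 7.16, 7.12 and 7.03 in wild type hearts, a difference of −0.29 (SE 0.09, adjusted p = 0.927) without overlap. These were the only heart members without overlap, where 2.58% of all probes tested had none, 1.32% with the heterozygous hearts higher and 1.26% with them lower. Tlcd4, a membrane protein of the TLC domain family, differed by −0.31 (SE 0.12, adjusted p = 0.927).

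Ttr had the widest genotype difference of any member and the least even one. After neqc it was at 5.49, 8.21, 5.90 and 6.20 in heterozygous hearts, against 5.63, 4.92, 5.71 and 4.93 in wild type hearts, which differ by 1.15 (SE 0.47, adjusted p = 0.927, limma). The second of these values is from the array that carried liver transcripts, and without it the difference was 0.57 (SE 0.23, adjusted p = 0.966). In brain Ttr differed by −0.18 (SE 0.14, adjusted p = 0.837) and in kidney by 0.12 (SE 0.12, adjusted p = 0.814).

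The interaction of genotype and tissue passed for 0 of the 100 members in limma, against 0.317% of 14835 probes tested, with a smallest adjusted p of 0.247. At an unadjusted p under 0.05 there were 4 members, Ppp1r1a, ILMN_2975718, Ttr and Gabarapl1, against 6.5% of all probes. A p that misses the threshold does not show that the genotypes are alike. With a median SE of 0.09 in brain, 0.10 in kidney and 0.10 in heart, small differences in single members were below what 4 mice per group resolve.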

How the data were processed

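Biotin-labelled cRNA was read on Illumina mouse bead arrays. The deposited table gives, per the file headers, an intensity per probe and array with its detection p-value, and the intensities are not normalized. The submitters' processing notes name GenomeStudio 2011.1, and its steps are not given there. The authors' processed intensity values in a second deposited table served as an alternative. Probe symbols came from GEO's platform annotation: 23978 probes had 1 symbol, 0 several and 1719 none.

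The rule was applied to log2 of the deposited intensity. For tests, intensities were corrected and quantile-normalized with neqc (limma 3.58.1, R 4.3.3, offset 16) within a tissue, or over the arrays of several tissues where these were compared. A probe was tested if at least 4 of 8 arrays gave it a detection p under 0.05. The fits used lmFit and eBayes, and p-values were adjusted by Benjamini-Hochberg over all probes tested, with a threshold of 0.05. Folds of dim probes depend on the correction and offset. The script was tested on simulated data. The number of arrays limits the precision.

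Named were the 10 largest gaps, the 3 brightest members in brain and kidney and in heart, the 2 furthest apart between brain and kidney each way, the 3 on either side of the boundary, the 2 smallest p per direction and tissue, genes with 2 member probes and members of a gene list. Other names were chosen after their values were seen. The members and lists were chosen with earlier results of these data known. The labels' mouse identifiers pair arrays across tissues, where deviations of a mouse from its group means correlated at −0.03 to 0.36, and the main fits held no mouse term.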

Additional observations from a re-analysis of the deposited data

Results flagged for a closer look

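In 6 of 60 groups of arrays examined for the 10 widest gaps, a single array stood far from the rest by Dixon's criterion, where chance gives about 1 in 20. Ttr in heart had a highest log2 intensity of 8.56 with the next at 7.23, on heterozygous replicate 2, the array with liver transcripts. Nipsnap1 in brain had a highest value of 10.19 with the next at 9.82, and ILMN_1253348 in brain one of 11.69 with the next at 11.47. Faah had a highest value of 9.09 in brain with the next at 8.83. All 3 of these brain values are from wild type replicate 1, the brightest brain array, whose median over all probes was 6.89 against 6.76 to 6.80 on the others, and its part in these values was not tested. In kidney Faah had a highest value of 9.00, on heterozygous replicate 3, with the next at 8.74. After neqc, ILMN_2954474 in heterozygous heart had a highest value of 7.02 with the next at 6.84, still below the lowest wild type heart value of 7.03.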

How the results depend on the processing

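The count of members that differed by genotype stayed 0 in brain, heart and the interaction under every alternative run. In kidney it was 0 except for 1 (Car2) without heterozygous replicate 1, so that leaving out a replicate gave 0 to 1. With the replicate number as a block it was 0 in each tissue. Same-numbered heterozygous and wild type mice deviated together at correlations of −0.04 to 0.34. Replicate 1 was the best match in each tissue, at 0.09 in brain, 0.29 in kidney and 0.34 in heart, and replicate 2 in none. The main fits did not take the numbers as pairs. All 12 genotype differences of single members kept their direction and missed the threshold in 216 of 216 refits, with a smallest adjusted p of 0.149 for any. Over all probes the kidney count of 30 became 14 when undetected probes were kept, 15 when the background was not corrected, 49 with array weights, 18 with the array number as a covariate, 43 with the replicate block and 15 to 50 with 1 array left out. The brain count of 0 became 1 under a trended and robust spread, under an offset of 50, and without heterozygous replicate 1. Of the 100 members, 69 were found again after neqc, 69 after quantile normalization, 73 on the authors' processed values, 68 with medians within 0.5, 88 on wild type arrays, 87 on heterozygous arrays, 86 by medians in place of extremes and 92 to 98 without a mouse. Of the 100 probes chosen on wild type arrays, 98 passed in heterozygous mice, 72 without background correction, 93 with an offset of 50, 98 with the replicate block and 98 to 99 without a mouse. A total of 41 members were found under all 15 settings, among them 6 of the 10 widest gaps. Ddah1, Slc1a1, Nipsnap1 and ILMN_1253348 were not found after neqc or with medians within 0.5, and the last 3 not after quantile normalization. Signal near background limits the 16 members not tested in heart.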
